A study of Mus musculus with 12 samples.

Results

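Integrins are the transmembrane receptors that tie a cell to its extracellular matrix, and the focal adhesion proteins couple them to the actin cytoskeleton. The 42 genes described here were listed by symbol: 20 integrin subunits (12 alpha and 8 beta) and 22 cytoplasmic adhesion proteins. All 42 were found in both deposited tables, among 32419 genes listed in either table. The listing applied no cutoff to a measured value, but it was made with earlier results of these data known.

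RNA was sequenced from primary brain endothelial cells (BECs), cultured from mice that carry (Cort+/+) or lack (Cort-/-) the gene of the neuropeptide cortistatin. The strain is C57BL/6 per the labels, the animals were 8 weeks old, and each biological replicate was a pool from 3 mice of a genotype. Cultures were enriched for endothelium with puromycin for 60 h. They were then kept for 24 h in normoxia and normoglycemia (NX/NG: 21% O2, 5.5 mM glucose), or deprived of glucose and serum for 4 h at 1% O2 and reoxygenated for 20 h in medium with 10% serum (OGD-R). The labels also describe every sample as a stroke model by artery occlusion, whereas the methods describe cultured cells exposed in vitro. Each environment was represented by 3 Cort+/+ and 2 Cort-/- libraries. The third Cort-/- sample under NX/NG and the second under OGD-R were not analysed here.

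An integrin is a pair of an alpha and a beta subunit, and the pair sets which matrix protein is bound: collagen, laminin, or proteins with the RGD motif such as fibronectin and vitronectin. Talin and kindlin bind the beta tail and switch the receptor on, vinculin and the complex of ILK, PINCH and parvin tie it to actin, and FAK and Src kinases signal from the plaque through docking proteins such as paxillin and p130Cas. In brain vessels, integrins anchor the endothelium to the basement membrane that it shares with pericytes and astrocytes.

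Every library held between 12386048 and 12390428 reads on genes. Ribosomal RNA took 7.64% to 15.8% of these reads in 8 libraries. It took 0.0775% in replicate 1 of the Cort+/+ and 0.0951% in replicate 3 of the Cort-/- cultures after OGD-R. These 2 libraries stand apart from the others, and results that rest on them are given with and without them. *Cort* had 0 reads in all 4 Cort-/- libraries and between 0 and 2 reads in the 6 Cort+/+ libraries, which is under the limit of 3 reads that a count of 0 allows, so the genotype labels could not be checked at this depth. The 8 endothelial markers summed to between 966 and 1391 RPKM (reads scaled to gene length and library size) in every library, with *Cdh5* at 443 to 740.0 RPKM and *Pecam1* at 152 to 255 RPKM. Leukocyte and platelet markers summed to no more than 4.28 and 1.01 RPKM. The 6 fibroblast markers summed to 273, 279 and 193 RPKM in the Cort+/+ and 121 and 83.6 RPKM in the Cort-/- libraries under NX/NG, and to 342, 312 and 231 RPKM and 199.6 and 252 RPKM under OGD-R. Of these 6, *Col1a1*, *Col1a2* and *Col3a1* made up nearly all of the sum, while *Lum* and *Pdgfra* did not exceed 0.15 and 0.71 RPKM in any library. The smooth muscle markers *Acta2* and *Tagln* were abundant throughout, with a list sum of 1055 to 1815 RPKM. In bulk RNA, fewer cells of a type and less RNA per cell cannot be told apart.

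A core of adhesion genes was abundant in every BEC library. Per-library values are given in the order of the replicate numbers (1, 2 and 3 for Cort+/+, and for Cort-/- 1 and 2 under NX/NG and 1 and 3 under OGD-R). *Itgb1*, the beta subunit shared by the collagen, laminin and fibronectin receptors, was the most abundant member. It was 594, 597 and 582 RPKM in Cort+/+ and 582 and 609 RPKM in Cort-/- BECs under NX/NG. Under OGD-R it was 604, 604 and 625 RPKM and 599 and 559 RPKM. *Itgb1* thus made up 87.5% to 91.8% of the summed RPKM of the 8 beta subunits. *Itgb3* and *Itgb5*, which pair with the alpha v subunit to bind vitronectin, followed at a mean of 34.6 and 31.6 RPKM over the 10 libraries, and *Itgb4*, the laminin-binding subunit of hemidesmosomes, at 4.18 RPKM. The other 4 beta subunits had means below 1 RPKM and were not tested. *Itgb2*, the leukocyte subunit, had at most 4 reads in a library, and *Itgb6*, an epithelial subunit, at most 12. *Itgb7* and *Itgb8* had mean levels of 0.44 and 0.30 RPKM.

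Among the 12 alpha subunits, *Itga5*, the partner of *Itgb1* in the classical fibronectin receptor, took 46.9% to 57.3% of the summed RPKM. Its level was 136, 152 and 134 RPKM in Cort+/+ and 162 and 139.5 RPKM in Cort-/- BECs under NX/NG, and 171, 149.8 and 130.5 RPKM and 147 and 167 RPKM under OGD-R. The ranges of the 4 groups overlapped. The laminin-binding subunit *Itga3* came next with 15.1% to 23.1% of the alpha sum. *Itgav*, which pairs with several beta subunits in RGD-binding receptors, and *Itga6*, which pairs with *Itgb1* or *Itgb4* to bind laminin, had means of 26.2 and 25.0 RPKM. The collagen receptors were low: *Itga1* and *Itga2* averaged 5.75 and 3.91 RPKM, and *Itga10* and *Itga11* averaged 2.66 and 1.49 RPKM. *Itga8*, an RGD-binding subunit, averaged 7.97 RPKM, and *Itga4* and *Itga9*, which bind VCAM-1, fibronectin splice forms and other ligands, 6.60 and 4.52 RPKM. *Itga7*, the laminin-binding subunit of muscle, averaged 0.43 RPKM.

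Among the cytoplasmic proteins, the actin crosslinker filamin A (*Flna*) was highest. Under NX/NG it was 337, 350.0 and 331 RPKM in Cort+/+ and 344 and 314 RPKM in Cort-/- BECs, and under OGD-R 399, 312 and 348 RPKM and 375 and 388 RPKM. The alpha-actinin *Actn4* was 157, 176 and 177 RPKM and 182 and 174 RPKM under NX/NG, and 193, 179 and 175 RPKM and 188 and 208 RPKM under OGD-R. For both genes the ranges of Cort+/+ and Cort-/- libraries overlapped in each environment. Vinculin (*Vcl*), which reinforces the link of talin to actin, was 139, 129 and 119 RPKM in Cort+/+ and 123 and 96.96 RPKM in Cort-/- BECs under NX/NG, and 137, 113 and 131 RPKM and 114 and 122 RPKM under OGD-R. Talin 1 (*Tln1*), the main activator of integrins at the beta tail, was 80.02, 87.8 and 81.4 RPKM and 88.4 and 77.6 RPKM under NX/NG, and 97.2, 75.6 and 79.3 RPKM and 88.3 and 94.7 RPKM under OGD-R. Its paralog *Tln2* averaged only 1.14 RPKM. Across the 10 libraries, scaled together, the highest value was under 1.5 times the lowest for 25 of the 37 members with a mean of at least 1 RPKM and at least 2 times the lowest for 6, with a median of 1.43. Of all members, 5 (*Itgb1*, *Itga5*, *Flna*, *Actn1* and *Actn4*) were above 100 RPKM in every library, and 21 stayed between 10 and 100 RPKM.

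**Figure D1:**
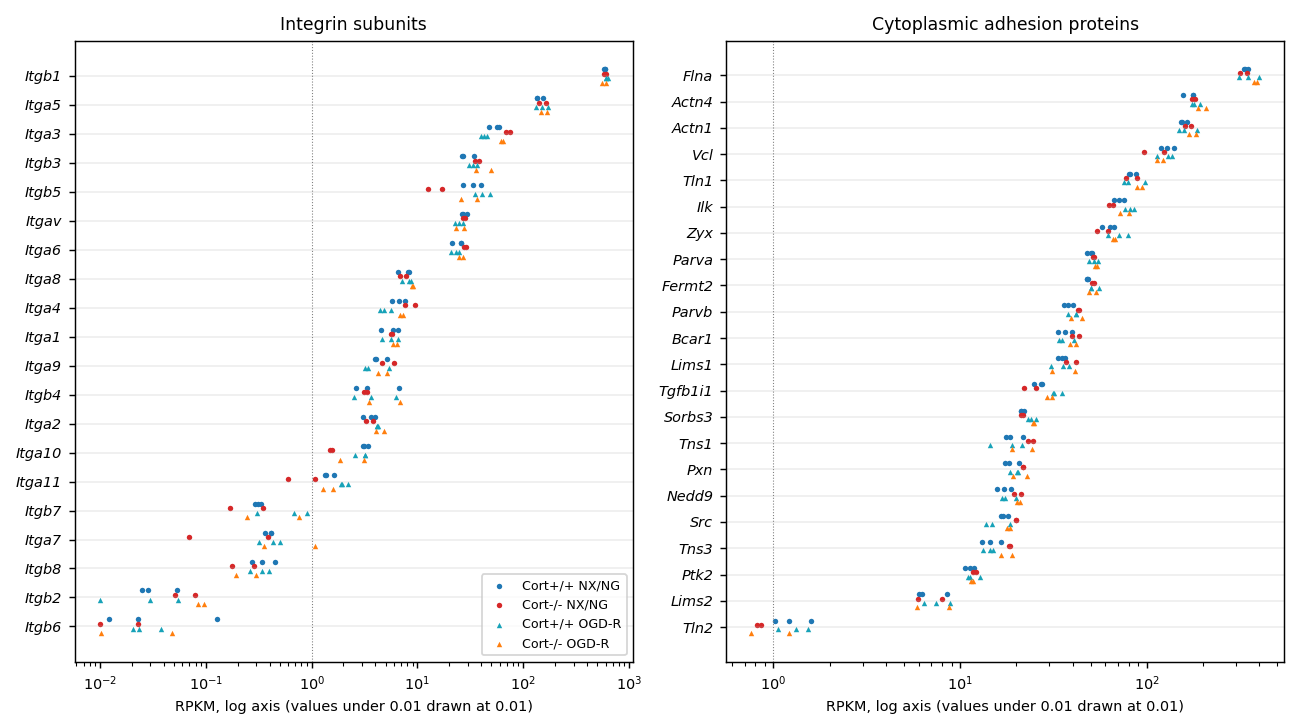
RPKM of the 20 integrin subunits (left) and 22 cytoplasmic adhesion genes (right) on log axes, 1 point per library, with circles for NX/NG and triangles for OGD-R; the dotted line marks 1 RPKM. The tables of the environments were normalized separately. *Itgb1* lies between 559 and 625 RPKM in all 10 libraries, and the Cort-/- NX/NG points of *Itgb5* and *Itga10* lie left of all others of those genes.

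The first question was whether the adhesion genes differ between Cort-/- and Cort+/+ BECs in a healthy environment. At an FDR of at most 0.05, limma called 0 of the 37 tested members, and 0 of 13722 genes (0% called). At an unadjusted p under 0.05, 9 members passed (24.3%), 6 higher and 3 lower in Cort-/- BECs, against 1825 of all genes tested (13.3%). The median log2 fold change of the members was 0.06, against 0.01 over all genes. The 3 lower members, *Itgb5*, *Itga10* and *Itga11*, are integrin subunits with the largest differences among the 37 tested members, whereas the 6 higher members (*Itga3*, *Itgb3*, *Src*, *Tns1*, *Tns3* and *Parvb*) had log2 fold changes of 0.18 to 0.42. No member passed the adjusted threshold, so these are values of single genes rather than calls. The 9 members were picked by their p-value in the same libraries, so a lack of overlap between genotypes is not separate support. Members outside the 9, such as *Fermt2*, *Parva* and *Ilk*, did not overlap either. The share of all genes without overlap was not counted.

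*Itgb5* (chromosome 16, 33829665 to 33949338, GRCm38) encodes the beta subunit of a vitronectin receptor. Under NX/NG it was 33.2, 40.2 and 26.9 RPKM in the Cort+/+ libraries, and 12.6 and 16.99 RPKM in the Cort-/- libraries. Each Cort-/- value lay below each Cort+/+ value, and the group means were 14.8 ± 3.07 RPKM (SD, n = 2) and 33.4 ± 6.68 RPKM (SD, n = 3). The log2 fold change was -1.16 (SE 0.21, limma unadjusted p = 0.00216, FDR = 0.211). *Itga10* (chromosome 3, 96645584 to 96664519), a collagen receptor subunit best known from cartilage, was 3.44, 3.13 and 3.03 RPKM in Cort+/+ and 1.48 and 1.56 RPKM in Cort-/- BECs. The replicates of each genotype were close together and the groups did not overlap. The log2 fold change was -1.02 (SE 0.11, limma unadjusted p = 0.000184, FDR = 0.105), from between 95 and 228 reads per library over the series. *Itga10* was the 1 member called when limma-voom was run on the recovered reads instead, with an FDR of 0.0302 (0.0302 to 0.471 over 11 alternatives), and that fit called 51 of 13722 genes. For *Itgb5* the FDR ranged from 0.0543 to 0.556 over the same 11 alternatives, with an unadjusted p under 0.05 in each, as for *Itga10*. Exons of *Itga10* overlap those of *Gm42957* on the same strand, so its reads could be shared with that gene model. *Itga11* (chromosome 9, 62677826 to 62783982), a receptor for fibrillar collagen typical of fibroblasts, was 1.37, 1.62 and 1.33 RPKM in Cort+/+ and 1.07 and 0.598 RPKM in Cort-/- BECs. Here the Cort-/- libraries differed from each other by more than the Cort+/+ libraries did, and the log2 fold change was -0.76 (SE 0.29, limma unadjusted p = 0.0447, FDR = 0.364). It ranged from -1.14 to -0.39 when a library was left out, the latter without Cort-/- replicate 2.

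Of the 6 fibroblast markers, the collagen genes *Col1a1*, *Col1a2* and *Col3a1* were lower in each Cort-/- than in each Cort+/+ library under NX/NG, and with them the sum of the list, at 193 to 279 RPKM in Cort+/+ and 83.6 to 121 RPKM in Cort-/- libraries. The other markers did not move with them: *Dcn* and *Lum* overlapped between genotypes, and *Pdgfra* was 0.366, 0.319 and 0.320 RPKM in Cort+/+ and higher, at 0.485 and 0.706 RPKM, in Cort-/- BECs. Of the 8 pericyte markers, *Cspg4*, *Pdgfrb*, *Rgs5* and *Notch3* were lower in each Cort-/- library, and *Anpep* and *Vtn* overlapped between genotypes. The sums of this list were 21.8, 26.6 and 21.6 RPKM in Cort+/+ and 10.5 and 13.1 RPKM in Cort-/- BECs. *Pdgfrb* and *Cspg4* were the largest part of this sum in Cort+/+ BECs, and *Kcnj8* and *Abcc9* were at 0.04 RPKM or less in every library. The endothelial markers summed to 966, 998 and 1202 RPKM in Cort+/+ and 1226 and 1358 RPKM in Cort-/- BECs. The part of these cell types in the differences of *Itgb5*, *Itga10*, *Itga11* and the higher members was not tested.

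**Figure D2:**
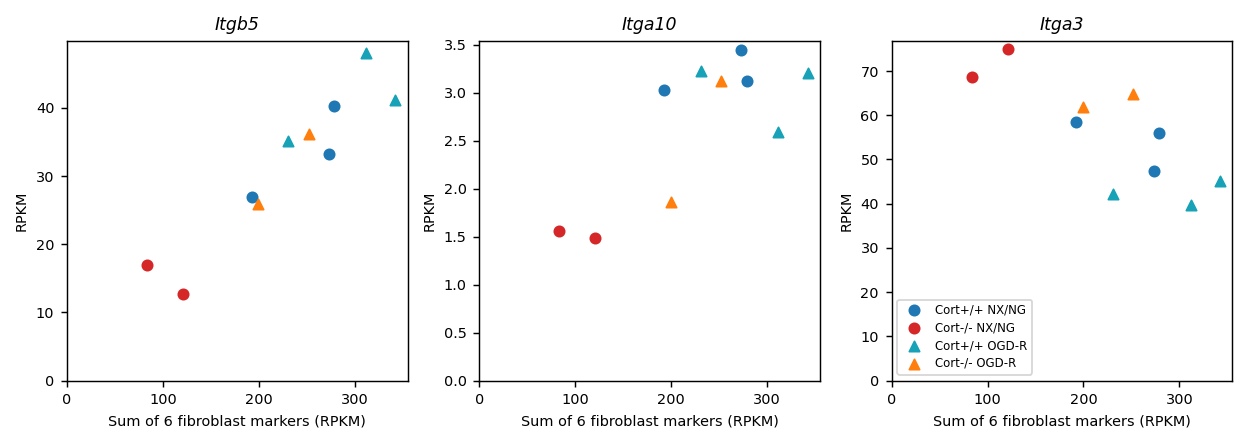
RPKM of *Itgb5*, *Itga10* and *Itga3* (vertical axes) against the summed RPKM of 6 fibroblast markers (horizontal axes), 1 point per library, with both axes from 0. Tables of the environments were normalized separately. The sum is nearly all *Col1a1*, *Col1a2* and *Col3a1*, and under NX/NG *Pdgfra* was higher in Cort-/- BECs. The Cort-/- NX/NG libraries have the lowest marker sums (83.6 and 121 RPKM) and the lowest *Itgb5* and *Itga10*, and the highest *Itga3*. The relation was not tested.

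The promoters of 3 members are shown because *Itgb5* and *Itga10* were lower together in Cort-/- BECs while *Tns3* was higher in both environments. Each is the 250 bases before the annotated start, read 5′ to 3′ on the strand of the gene, from RefSeq on GRCm38.p6. They lie at chr16:33829415-33829664 (plus strand), chr3:96645334-96645583 (plus strand) and chr11:8664536-8664785 (minus strand). Capitals mark matches on either strand to the GC box GGGCGG, a core promoter element bound by Sp factors, or the TEAD motif GGAATG.
Itgb5: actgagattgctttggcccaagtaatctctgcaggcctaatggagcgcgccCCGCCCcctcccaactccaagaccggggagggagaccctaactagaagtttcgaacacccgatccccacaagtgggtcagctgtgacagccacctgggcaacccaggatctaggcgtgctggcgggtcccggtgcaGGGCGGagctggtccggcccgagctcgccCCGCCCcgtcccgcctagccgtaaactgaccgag
Itga10: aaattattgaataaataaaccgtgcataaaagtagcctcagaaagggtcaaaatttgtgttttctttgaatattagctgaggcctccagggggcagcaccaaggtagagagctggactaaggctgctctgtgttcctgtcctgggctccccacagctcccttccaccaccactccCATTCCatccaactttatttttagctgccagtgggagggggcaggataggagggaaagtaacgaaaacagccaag
Tns3: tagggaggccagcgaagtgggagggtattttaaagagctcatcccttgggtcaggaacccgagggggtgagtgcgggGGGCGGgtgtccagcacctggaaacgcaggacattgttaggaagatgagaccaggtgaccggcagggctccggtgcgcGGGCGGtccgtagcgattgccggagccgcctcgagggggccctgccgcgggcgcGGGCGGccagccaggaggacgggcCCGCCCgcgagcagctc
The promoter of *Itgb5* held 3 GC boxes and 65.2% GC, and that of *Tns3* held 4 and 69.6%. *Itga3* was also higher in both environments, and its promoter is not printed. It held 3 GC boxes, 1 match to the ETS motif CCGGAA and 67.6% GC. The promoter of *Itga10* held 0 GC boxes, 1 TEAD match and 48.0% GC, against a median of 52.4% GC over all 32851 promoters. A GC box was found in 32.7% of all promoters and in 21 of the 36 promoters listed for 30 members (58.3%). The TEAD motif was found in 12.6% and in 5 of 36 (13.9%). The AP-1 motif TGANTCA was found in 6.75% of all promoters and 2 of 36 (5.56%), and the ETS motif CCGGAA in 12.0% and 4 of 36 (11.1%). These matches are letters in a window rather than shown binding sites, and their part in the genotype differences was not tested.

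Of the members higher in Cort-/- BECs under NX/NG, the laminin-binding subunit *Itga3* (chromosome 11, 95044474 to 95076801) differed most. It was 47.4, 56.01 and 58.5 RPKM in Cort+/+ and 75.1 and 68.7 RPKM in Cort-/- BECs, with means of 53.96 ± 5.82 (SD, n = 3) and 71.9 ± 4.52 RPKM (SD, n = 2). The groups did not overlap, and the log2 fold change was 0.42 (SE 0.11, limma unadjusted p = 0.0108, FDR = 0.288). *Itga6*, another laminin-binding subunit, was 21.4, 25.5 and 25.9 RPKM in Cort+/+ and 28.8 and 27.7 RPKM in Cort-/- BECs, a log2 fold change of 0.22 (SE 0.10, limma unadjusted p = 0.0731, FDR = 0.407). *Itgb3* was 26.8, 26.2 and 34.1 RPKM in Cort+/+ and 35.1 and 38.03 RPKM in Cort-/- BECs, with Cort+/+ replicate 3 close to the Cort-/- values. Its log2 fold change was 0.34 (SE 0.13, limma unadjusted p = 0.0472, FDR = 0.368). Since *Itgb5* differed in the opposite direction, the ratio of *Itgb3* to *Itgb5* was 0.807, 0.651 and 1.27 in Cort+/+ and 2.78 and 2.24 in Cort-/- BECs under NX/NG. *Itgav*, with which both pair, was 29.1, 26.3 and 26.7 RPKM and 27.1 and 28.1 RPKM, a log2 fold change of 0.02 (95% interval -0.16 to 0.19).

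Of the tensins, which bind beta tails and actin in fibrillar adhesions, *Tns1* was 18.4, 17.6 and 21.8 RPKM in Cort+/+ and 23.2 and 24.7 RPKM in Cort-/- BECs. *Tns3* was 13.1, 14.5 and 16.5 RPKM and 18.4 and 18.4 RPKM. Neither gene overlapped between genotypes, and the log2 fold changes were 0.32 for *Tns1* (SE 0.11, limma FDR = 0.337) and 0.32 for *Tns3* (SE 0.10, limma FDR = 0.329). The kinase *Src* was 17.02, 16.6 and 18.1 RPKM in Cort+/+ and 19.8 and 19.9 RPKM in Cort-/- BECs, a log2 fold change of 0.20 (SE 0.06, limma FDR = 0.315). The parvin *Parvb*, an actin-binding partner of ILK, was 35.96, 40.3 and 37.7 RPKM and 43.02 and 43.2 RPKM, a log2 fold change of 0.18 (SE 0.07, limma FDR = 0.355). These are differences of 1.14-fold to 1.25-fold in which the genotypes did not overlap. The genes were picked by their p-value in the same libraries, so the lack of overlap is not separate support.

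By role, the talin, kindlin and vinculin group had 0 of 4 and the RGD-binding alpha subunits 0 of 3 members at an unadjusted p under 0.05. The share was 13.3% over all genes, and with so few members in a role such counts cannot tell the roles apart. In the complex of ILK, PINCH and parvin it was *Parvb* alone, 1 of 5 members. The gene *Ilk* itself was 75.3, 71.3 and 66.9 RPKM in Cort+/+ and 65.8 and 62.7 RPKM in Cort-/- BECs, a log2 fold change of -0.15 (SE 0.07, limma unadjusted p = 0.0917, FDR = 0.437). *Parva* was 47.98, 49.98 and 50.6 RPKM and 51.3 and 51.9 RPKM. Among 6 kinases and docking proteins only *Src* had an unadjusted p under 0.05. Of the 6, 5 had a higher mean log2 value in Cort-/- BECs, as did 7166 of all 13722 genes. The median log2 fold change of the 6 was 0.19, against 0.01 over all genes. Within this group *Bcar1* (p130Cas) was 33.3, 39.8 and 36.4 RPKM in Cort+/+ and 43.2 and 39.7 RPKM in Cort-/- BECs. *Tgfb1i1* (Hic-5), a relative of paxillin, was the member of this group with a lower value, at 27.6, 26.95 and 24.8 RPKM and 25.4 and 22.1 RPKM. The members with means above 100 RPKM over these libraries had intervals that include 0. The log2 fold change was 0.01 for *Itgb1* (95% interval -0.15 to 0.17), -0.04 for *Flna* (-0.22 to 0.13), 0.07 for *Actn4* (-0.13 to 0.26), 0.09 for *Actn1* (-0.08 to 0.26) and 0.10 for *Itga5* (-0.15 to 0.35). The interval was widest for *Vcl*, at -0.24 (-0.56 to 0.09). *Itga1* was 4.53, 6.55 and 5.83 RPKM in Cort+/+ and 5.80 and 5.67 RPKM in Cort-/- BECs and *Itga2* 3.06, 3.99 and 3.63 RPKM and 3.28 and 3.77 RPKM, and both overlapped between genotypes, unlike *Itga10* and *Itga11*. *Itga4* and *Itga9* were 5.71, 7.70 and 6.75 and 4.05, 3.93 and 5.15 RPKM in Cort+/+, and 9.44 and 7.56 and 4.62 and 6.04 RPKM in Cort-/- BECs, and their ranges overlapped.

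The other 12 tested members had no unadjusted p under 0.05 in any of the 5 comparisons. They are *Itga8* and *Itgb4*, the talin *Tln2* and the kindlin *Fermt2*, the PINCH genes *Lims1* and *Lims2*, the FAK gene *Ptk2*, the docking proteins *Pxn* (paxillin) and *Nedd9*, and the actin-linked proteins *Sorbs3*, *Zyx* and *Actn1*. Their means over the 10 libraries ran from 1.14 RPKM for *Tln2* to 165 RPKM for *Actn1*, with *Zyx* at 65.1 and *Fermt2* at 50.5 RPKM. Between genotypes their log2 fold changes lay between -0.53 (*Tln2*) and 0.24 (*Nedd9*) under NX/NG and between -0.38 (*Tln2*) and 0.33 (*Itgb4*) under OGD-R.

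**Figure D3:**
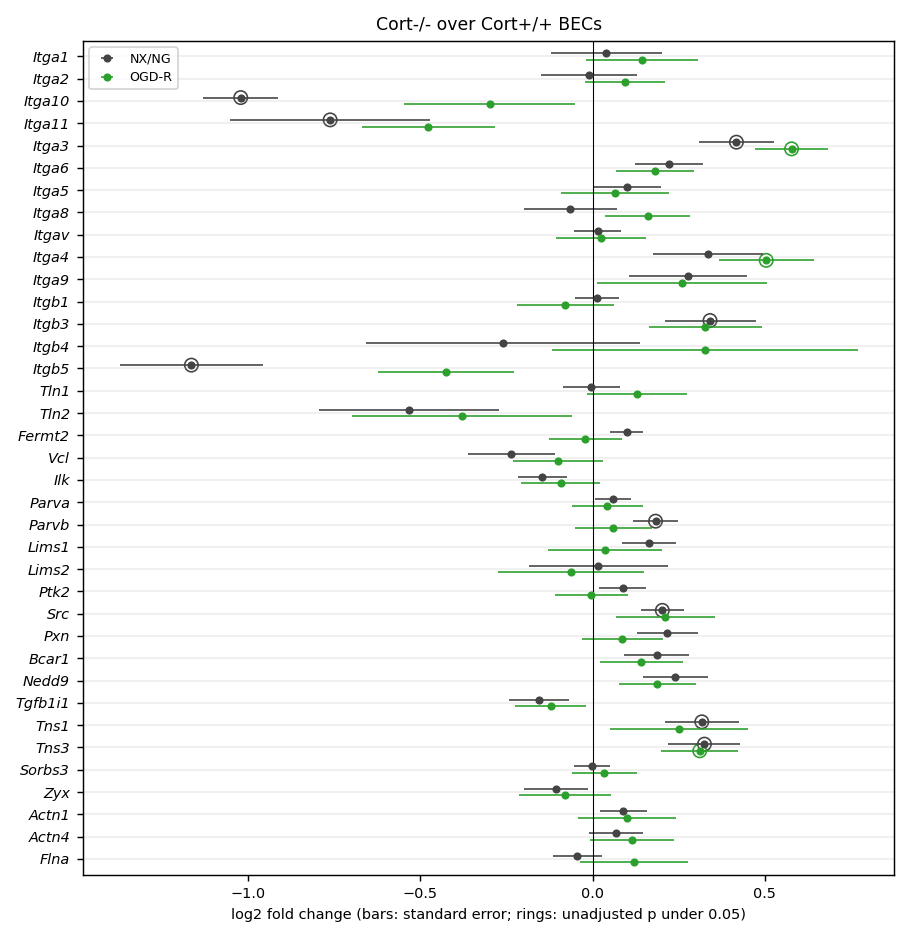
Log2 fold change of Cort-/- over Cort+/+ BECs for the 37 tested members under NX/NG (black) and OGD-R (green); bars are standard errors and rings mark an unadjusted p under 0.05. *Itgb5*, *Itga10* and *Itga11* are the ringed points left of 0 under NX/NG, and *Itga3* and *Tns3* are ringed in both environments.

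The second question was whether the genotypes differ after injury. Under OGD-R, limma called 0 of 37 members and 0 of 13833 genes at an FDR of at most 0.05 (0% called). At an unadjusted p under 0.05 there were 3 members (8.11%), *Itga3*, *Itga4* and *Tns3*, against 510 of all genes (3.69%). All 3 were higher in Cort-/- BECs, and the median log2 fold change was 0.09 for the members and -0.01 for all genes. *Itga3* and *Itga4* are genes that the study itself picked out on these samples, so their direction is not independent evidence.

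*Itga3* was 45.1, 39.8 and 42.3 RPKM in Cort+/+ and 61.8 and 64.7 RPKM in Cort-/- BECs under OGD-R. The groups were well apart, and the log2 fold change was 0.58 (SE 0.11, limma unadjusted p = 0.00178, FDR = 0.684). Its sign and an unadjusted p under 0.05 were kept in all 13 alternatives, including those without the libraries low in ribosomal RNA, with values of 0.53 to 0.62. *Itga4* (chromosome 2, 79255426 to 79333123), the alpha subunit of the VCAM-1 receptor, was 5.66, 4.39 and 4.79 RPKM in Cort+/+ and 6.79 and 7.25 RPKM in Cort-/- BECs. The Cort-/- values lay above the Cort+/+ values, with a log2 fold change of 0.50 (SE 0.14, limma unadjusted p = 0.0114, FDR = 0.9996). It ranged from 0.42 to 0.60 when libraries were left out. The unadjusted p of *Itga4* was under 0.05 in 11 of 13 alternatives. It was not with the replicate block, nor without Cort-/- replicate 3, which is low in ribosomal RNA. The latter fit leaves replicate 1 alone in the Cort-/- group. *Itga4* overlaps exons of *Cerkl* on the opposite strand, and whether the reads were counted by strand is not given in the sources used here. *Tns3* was 14.5, 13.3 and 14.997 RPKM in Cort+/+ and 18.9 and 16.6 RPKM in Cort-/- BECs, a log2 fold change of 0.31 (SE 0.11, limma unadjusted p = 0.0340, FDR = 0.9996). Its unadjusted p was under 0.05 in 8 of 13 alternatives.

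Of the 3 subunits that were lower in Cort-/- BECs under NX/NG, *Itgb5* and *Itga10* overlapped between genotypes under OGD-R and *Itga11* did not. *Itgb5* was 41.2, 48.1 and 35.2 RPKM in Cort+/+ and 25.9 and 36.1 RPKM in Cort-/- BECs, where replicate 3, low in ribosomal RNA, lay within the Cort+/+ range. The log2 fold change was -0.42 (95% interval -0.92 to 0.07), -0.66 without that library and -0.19 without Cort-/- replicate 1. *Itga10* was 3.20, 2.59 and 3.23 RPKM and 1.86 and 3.12 RPKM, and again Cort-/- replicate 3 was within the Cort+/+ range, with a log2 fold change of -0.30 (95% interval -0.91 to 0.31). It was -0.66 without replicate 3 and turned to 0.06 without Cort-/- replicate 1. *Itga11* was 1.93, 1.91 and 2.20 RPKM and 1.58 and 1.27 RPKM, with both Cort-/- values below the Cort+/+ values and a log2 fold change of -0.48 (95% interval -0.95 to 0.0017). Without both libraries low in ribosomal RNA, 5 members had an unadjusted p under 0.05: *Itga3*, *Itga4*, *Itgb3* and *Tns3* were higher and *Itgb5* was lower in Cort-/- BECs. That fit sets 2 libraries against 1, which is assumed to vary like the others, and 7.17% of all genes had an unadjusted p under 0.05 in it. The fibroblast marker sum was 199.6 RPKM in Cort-/- replicate 1 and 252 RPKM in replicate 3, against 231 to 342 RPKM in Cort+/+ libraries, and its part in these values was not tested.

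Most other members overlapped between genotypes under OGD-R, and the share over all genes was not counted. Of the tested members, *Itga8* and *Nedd9* were higher and *Itgb1* was lower in both Cort-/- libraries, without overlap. *Itga6* and *Tgfb1i1*, given below, did not overlap either. *Itgb3* was 30.8, 33.2 and 36.8 RPKM in Cort+/+ and 49.1 and 36.1 RPKM in Cort-/- BECs, and the ratio of *Itgb3* to *Itgb5* was 0.749, 0.690 and 1.04 and 1.89 and 0.998. *Itga6* was 24.6, 20.9 and 23.1 RPKM and 27.01 and 24.8 RPKM, and *Itgav* 24.7, 22.7 and 27.05 RPKM and 27.5 and 23.03 RPKM. For *Itga6* both Cort-/- values were the higher, while *Itgav* overlapped. *Tns1* was 18.9, 14.5 and 21.4 RPKM in Cort+/+ and 24.3 and 19.04 RPKM in Cort-/- BECs, and *Src* 18.4, 14.9 and 13.8 RPKM and 18.4 and 17.8 RPKM. *Parvb* was 41.9, 41.5 and 37.6 RPKM and 44.8 and 39.4 RPKM, and *Parva* 54.9, 51.96 and 48.9 RPKM and 52.6 and 54.3 RPKM. These 4 genes overlapped between genotypes, as did *Ilk* at 81.4, 85.2 and 76.04 RPKM and 71.8 and 79.9 RPKM. *Bcar1* was 40.6, 35.2 and 33.9 RPKM and 38.6 and 42.002 RPKM, and *Itga9* 3.41, 3.22 and 5.34 RPKM and 5.21 and 4.19 RPKM. *Itga1* was 5.62, 4.65 and 6.56 RPKM and 6.38 and 5.92 RPKM, and *Itga2* 4.10, 4.12 and 4.22 RPKM and 4.79 and 4.10 RPKM. Each of the 4 overlapped. *Tgfb1i1*, at 34.995, 31.9 and 31.4 RPKM in Cort+/+ and 29.1 and 31.05 RPKM in Cort-/- BECs, was lower in both Cort-/- libraries, with a log2 fold change of -0.12 (95% interval -0.38 to 0.13). The log2 fold change of *Itgb1* was -0.08 (95% interval -0.43 to 0.27), a wider interval than under NX/NG.

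**Figure D4:**
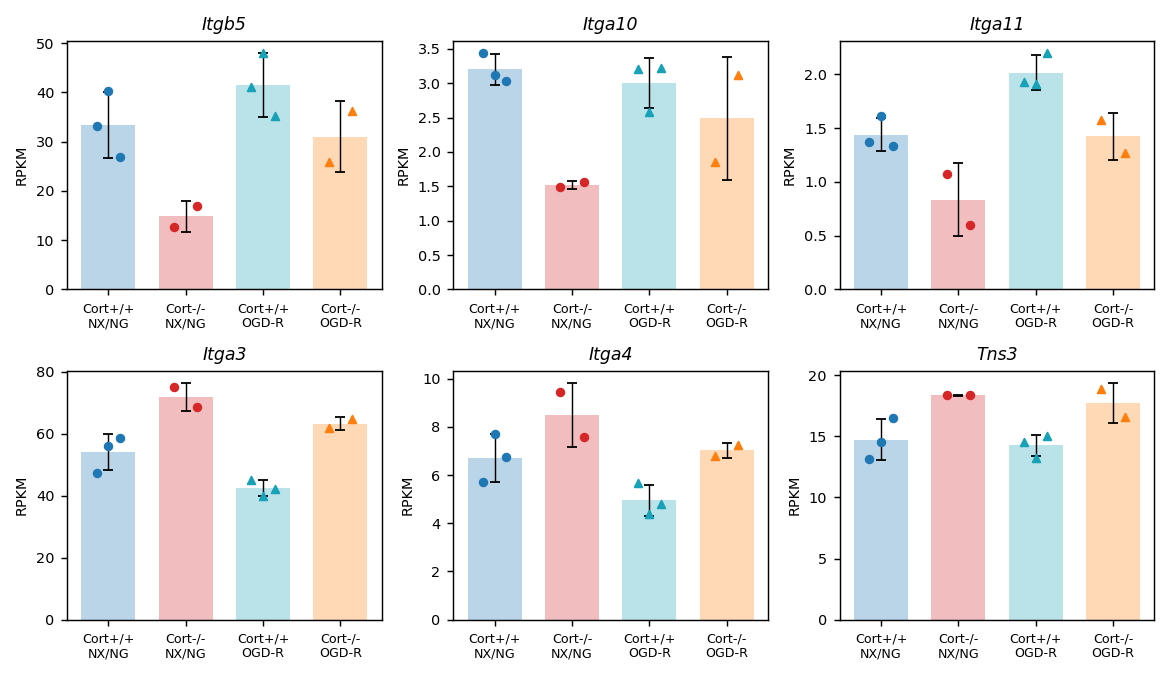
RPKM of 6 members in the 4 groups; bars from 0 are means, error bars are SD (n = 3 for Cort+/+ and 2 for Cort-/-), and points are libraries. Tables of the environments were normalized separately. *Itga3* is higher in every Cort-/- library than in the Cort+/+ libraries of the same environment, and *Itga10* is at 1.48 and 1.56 RPKM in the Cort-/- NX/NG libraries but 1.86 and 3.12 RPKM in those under OGD-R.

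The third question was how each genotype responds to OGD-R. For this, reads of the 27321 genes listed in both tables were scaled together over the 10 libraries, and the values below are RPKM on that joint scale. In Cort+/+ BECs limma called 0 of 37 members and 0 of 13804 genes (0% called). At an unadjusted p under 0.05 there were 5 members (13.5%), 2 higher and 3 lower under OGD-R, against 923 of all genes (6.69%). The median log2 fold change was -0.02 for members and 0.01 for all genes.

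The lower members were the alpha subunits *Itga3*, *Itga4* and *Itgav*. *Itga3* was 48.5, 57.3 and 60.01 RPKM under NX/NG and 43.9, 38.8 and 41.2 RPKM under OGD-R in Cort+/+ BECs, with means of 55.3 ± 5.99 and 41.3 ± 2.56 RPKM (SD, n = 3 each). *Itga4* was 5.85, 7.88 and 6.93 RPKM and 5.51, 4.28 and 4.67 RPKM. Neither gene overlapped between environments, and the log2 fold changes were -0.42 for *Itga3* (SE 0.10, limma FDR = 0.710) and -0.50 for *Itga4* (SE 0.14, limma FDR = 0.710). *Itgav* was 29.8, 26.9 and 27.4 RPKM and 24.1, 22.1 and 26.4 RPKM, a log2 fold change of -0.21 (SE 0.09, limma FDR = 0.737). The higher members were *Itga11* and *Tgfb1i1*. *Itga11* was 1.40, 1.65 and 1.37 RPKM under NX/NG and 1.88, 1.86 and 2.15 RPKM under OGD-R, a log2 fold change of 0.39 (SE 0.14, limma FDR = 0.727). *Tgfb1i1* was 28.2, 27.6 and 25.5 RPKM and 34.1, 31.1 and 30.6 RPKM, a log2 fold change of 0.24 (SE 0.07, limma FDR = 0.710). In these 5 genes every OGD-R library lay on the same side of every NX/NG library. The 5 were picked by their p-value in the same libraries, so this separation is not separate support. *Sorbs3* was also higher in every OGD-R library without an unadjusted p under 0.05, and the share of all genes so separated was not counted. *Itga3* and *Itga4* had an unadjusted p under 0.05 in all 13 alternatives, whereas *Itgav* had it in 5 and *Itga11* in 6. Without OGD-R replicate 1, low in ribosomal RNA, 4 members had an unadjusted p under 0.05: *Itga3*, *Itga4*, *Src* and *Tgfb1i1*, beside 9.21% of all genes. The adhesion core was close between environments, with a log2 fold change of -0.02 for *Itgb1* (95% interval -0.22 to 0.17) and -0.10 for *Vcl* (95% interval -0.34 to 0.15).

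In Cort-/- BECs limma called 0 of 36 members and 0 of 13730 genes (0% called). *Tln2* also lay below the limit of 1 RPKM in that fit and was not tested there. At an unadjusted p under 0.05 there was 1 member (2.78%) against 512 of all genes (3.73%), and the median log2 fold change was -0.02 for the members and -0.01 for all genes. That member was *Itgb5*, at 13.01 and 17.5 RPKM under NX/NG and 25.3 and 35.2 RPKM under OGD-R, a log2 fold change of 0.98 (SE 0.23, limma unadjusted p = 0.0107, FDR = 0.938). In Cort+/+ BECs *Itgb5* was 33.98, 41.2 and 27.6 RPKM and 40.1, 46.9 and 34.3 RPKM, and the groups overlapped, with a log2 fold change of 0.25 (95% interval -0.17 to 0.67). The same Cort-/- NX/NG libraries enter this comparison and that of the genotypes under NX/NG, so the 2 values of *Itgb5* are not independent. The sum of the fibroblast markers, nearly all collagen, was lowest in these libraries, at 83.6 and 121 RPKM against 199.6 and 252 RPKM in Cort-/- BECs under OGD-R, and its part was not tested. *Itga3* was 77.2 and 70.7 RPKM and 60.2 and 63.05 RPKM, a log2 fold change of -0.26 (95% interval -0.55 to 0.03). *Itga4* was 9.70 and 7.78 RPKM and 6.62 and 7.06 RPKM, a log2 fold change of -0.34 (95% interval -0.72 to 0.04). Both were lower in each OGD-R library, with intervals that include 0. This separation of 2 from 2 libraries was not particular to them. *Itga6*, *Itgav* and *Src* were also lower and *Itga2* and *Flna* higher in each OGD-R library, and the share of all genes was not counted. Without Cort-/- OGD-R replicate 1, 6 members and 17% of all genes had an unadjusted p under 0.05, *Itga10*, *Itgav*, *Itgb4*, *Itgb5*, *Lims1* and *Tns1*; that fit compares the library low in ribosomal RNA alone with NX/NG. Without that library, replicate 3, *Itgb3* and *Itgb5* had one, beside 4.48% of all genes.

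The difference between the genotypes in their response to OGD-R was tested as an interaction. For 37 members, limma called 0, as for all 13789 genes (0% called), and 2 members (5.41%), *Itgb5* and *Itga10*, had an unadjusted p under 0.05, against 229 of all genes (1.66%). The interaction was 0.73 for *Itgb5* (SE 0.31, limma unadjusted p = 0.0465, FDR = 0.9997) and 0.72 for *Itga10* (SE 0.29, limma unadjusted p = 0.0352, FDR = 0.9997). *Itga10* was 1.53 and 1.61 RPKM under NX/NG and 1.81 and 3.04 RPKM under OGD-R in Cort-/- BECs, and 3.53, 3.20 and 3.11 RPKM and 3.12, 2.52 and 3.14 RPKM in Cort+/+ BECs. When a library was left out, the interaction ranged from 0.50 to 0.97 for *Itgb5* and from 0.36 to 1.08 for *Itga10*, lowest without Cort-/- OGD-R replicate 3 and highest without replicate 1 of that group. For each gene the unadjusted p was under 0.05 in 9 of 17 alternatives, and without both libraries low in ribosomal RNA it was so for 0 members. For the members with an unadjusted p under 0.05 between genotypes under OGD-R, the interaction was 0.15 for *Itga3* (95% interval -0.18 to 0.49), 0.16 for *Itga4* (-0.34 to 0.67) and -0.02 for *Tns3* (-0.37 to 0.33).

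The 61 other adhesion partners on a separate list, such as adaptors, kinases and LIM proteins of the plaque, were counted in the same way at an unadjusted p under 0.05. Between genotypes there were 4 of 47 tested under NX/NG (8.51%, against 13.3% of all genes) and 1 of 46 under OGD-R (2.17% against 3.69%). Between environments there were 4 of 46 in Cort+/+ (8.70% against 6.69%) and 1 of 47 in Cort-/- BECs (2.13% against 3.73%), and for the interaction 0 of 47 (0% against 1.66%). *Sorbs2*, an adaptor related to the vinexin gene *Sorbs3*, was 10.2, 11.7 and 12.2 RPKM in Cort+/+ and 15.3 and 13.7 RPKM in Cort-/- BECs under NX/NG. Under OGD-R it was 10.3, 9.14 and 9.63 RPKM and 13.5 and 11.1 RPKM, so that Cort-/- values were higher in both environments, with log2 fold changes of 0.35 (SE 0.10, limma FDR = 0.311) and 0.33 (SE 0.13, limma FDR = 0.9996). The actin regulators *Enah* and *Pak1* were lower by log2 fold changes of -0.42 and -0.25 and *Lasp1* was higher by 0.18 in Cort-/- BECs under NX/NG. In Cort+/+ BECs the LIM proteins *Lpp* and *Pdlim7* had log2 fold changes of -0.38 and 0.21 under OGD-R.

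Of 33 integrin ligands, 10 of 26 tested (38.5%, against 13.3% of all genes) had an unadjusted p under 0.05 between genotypes under NX/NG. Of these, 4 were higher and 6 lower in Cort-/- BECs, and 0 were called by limma at an FDR of at most 0.05. The list was chosen with earlier results of these data known, and the study itself reports *Col1a2*, *Lama2* and *Spp1* as lower. The share is therefore not independent evidence. The lower ligands were led by fibrillar collagen: *Col1a1* was 155, 166 and 113 RPKM in Cort+/+ and 67.5 and 46.5 RPKM in Cort-/- BECs, a log2 fold change of -1.35 (SE 0.23, limma FDR = 0.205). *Col1a2* had a log2 fold change of -1.41; both collagens are also on the list of fibroblast markers. Osteopontin (*Spp1*), an RGD protein bound by alpha v integrins, was 799, 924 and 1025 RPKM in Cort+/+ and 358 and 526 RPKM in Cort-/- BECs, a log2 fold change of -1.07 (SE 0.20, limma FDR = 0.211). *Fbn1*, *Lama2* and *Jam3* were lower with log2 fold changes of -0.87, -0.67 and -0.31. The higher ligands were *Thbs1*, *Lama1*, *Fn1* and *Tnc*. Fibronectin (*Fn1*), the ligand of the *Itga5* receptor, was 2042, 2131 and 2335 RPKM in Cort+/+ and 2593 and 2598 RPKM in Cort-/- BECs, without overlap, with a log2 fold change of 0.26 (SE 0.10, limma FDR = 0.363). Between genotypes under OGD-R, 1 of 28 ligands had an unadjusted p under 0.05 (3.57% against 3.69%). Between environments it was 1 of 28 in Cort+/+ (3.57% against 6.69%) and 4 of 26 in Cort-/- BECs (15.4% against 3.73%), where *Col1a1*, *Col1a2*, *Spp1* and *Fbn1* were higher under OGD-R with log2 fold changes of 1.13, 1.31, 0.98 and 0.69. These 4 are ligands that were lower in the same Cort-/- NX/NG libraries.

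The members share little in position. They were placed on GRCm38 by symbol with GENCODE vM21, and 1 of 42, *Tln1*, lies on chromosome 4 with *Cort*, 106 Mb from it. Exons of *Itga1* overlap *Gm49395* on the same strand, as *Itga10* does with *Gm42957*, and exons of 14 members overlap a gene on the opposite strand. The build and annotation behind the deposited values are not given in the sources used here, so positions serve only to locate the genes.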

How the data were processed

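Per the labels, stranded mRNA libraries of BEC cultures were sequenced on a NextSeq; labels and methods differ on kit, RNA input and read length. The submitters' processing notes name edgeR; aligner, counter, build and annotation are not given in the sources used here. The deposited RPKM values were normalized by the authors for each environment separately. RPKM times gene length gave whole reads, within 0.05, for at least 99.9958% of values above 0 in each library. The authors' own comparisons (fold changes, p-values, FDR) and 10 columns of expression categories were not used.

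Each comparison was fitted with limma 3.58.1 in R 4.3.3 (trended empirical Bayes, two-sided) on log2(RPKM + 0.1), which understates fold changes of low genes. Genes were tested where their mean over the libraries in the fit reached 1 RPKM, with Benjamini-Hochberg adjustment over all of them and a call at an FDR of at most 0.05. Only the groups compared entered, and all 4 for the interaction. Between environments, reads of 27321 genes were scaled over the 10 libraries with the trimmed mean of M values. The genotype fits were also run on simulated reads with the same underlying spread for all genes. That setting is simpler than these data, so it does not show how large a difference could be called here. The p-values measure the spread between 2 or 3 pooled cultures a group.

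The members and lists were chosen with earlier results of these data known. Values in every library are given for members with an unadjusted p under 0.05 in any comparison, the 2 most abundant members of each role, and *Itga3* and *Itga4*, which the study names; of partners and ligands, for at most the 6 with the lowest p. Same-numbered libraries did not deviate together (correlations of deviations between -0.53 and 0.19), and numbers were not taken as pairs. With 2 libraries in a Cort-/- group the deviations mirror each other, so this check could not exclude pairing. Alternatives were a pseudocount of 1, no filter, limma-voom on the recovered reads, quantile normalization, the replicate block, a term for libraries low in ribosomal RNA, all groups in a single fit, and each library left out. Leaving out both libraries low in ribosomal RNA was added after the data were seen. Promoters are from RefSeq (GRCm38.p6), which held 30 of the 42 members. No libraries had identical values.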

Additional observations from a re-analysis of the deposited data

How the results depend on the processing

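The 20 member results with an unadjusted p under 0.05 kept their direction in every alternative; among their 247 values, 177 kept their side of that threshold and 70 did not. Of the other 164 member results, 76 changed direction in at least 1 alternative, all with a log2 fold change of at most 0.33 in size: under NX/NG *Itgb4* reached 0.13, *Flna* 0.02 and *Itga5* -0.01, and under OGD-R *Itga10* reached 0.06 and *Itgb4* -0.15. Of 192 counts, 155 stayed within 1.5 times and 37 did not. Between genotypes under NX/NG, limma-voom called 51 genes and 1 member (*Itga10*), with 14 members and 15.7% of all genes at an unadjusted p under 0.05, and all groups in a single fit called 3 genes; leaving out a library gave 3 to 9 such members, 3 without Cort-/- replicate 2 (6.74% of all genes) and 4 without Cort+/+ replicate 1 (7.59%). Under OGD-R, a pseudocount of 1 called 2 genes, limma-voom 1 and all groups in a single fit 4. Members at an unadjusted p under 0.05 were 5 with limma-voom (3.28% of all genes), 5 without both libraries low in ribosomal RNA (7.17%), and 2 to 5 when a library was left out, 5 of them without Cort-/- replicate 3 (6.53%). In Cort+/+ BECs, 9 genes were called with no filter and 2 with all groups in a single fit, and 3 to 5 members had an unadjusted p under 0.05 when a library was left out, with 3 of them without NX/NG replicate 3 (5.03% of all genes). In Cort-/- BECs, there were 2 such members with no filter, with limma-voom or with a term for libraries low in ribosomal RNA (3.97% to 4.41% of all genes), and all groups in a single fit called 1 gene and gave 5 such members (5.19%). Leaving out a library gave 1 to 6, namely 2 without NX/NG replicate 2 (2.35%), 2 without OGD-R replicate 3 (4.48%) and 6 without OGD-R replicate 1 (17%). For the interaction, no filter called 3 genes, the term for libraries low in ribosomal RNA gave 1 such member (1.98%), and leaving out both of these libraries gave 0 (3.94%). Leaving out a library gave 0 to 2 members (1.35% to 5.08% of all genes), with 0 without Cort+/+ NX/NG replicate 1 or 2, Cort-/- NX/NG replicate 1 or Cort-/- OGD-R replicate 3, and called 0 to 2 genes, 2 of them without Cort-/- OGD-R replicate 1. The cause of these shifts was not tested.

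With the replicate block, 10 members had an unadjusted p under 0.05 between genotypes under NX/NG (15.7% of all genes), 1 under OGD-R (*Itga3*, with 1.69% of all genes), 4 between environments in Cort+/+ BECs (6.78%) and 1 for the interaction (*Itgb5*, with 1.54%), and 0 genes were called. In Cort-/- BECs no paired analysis was possible because the environments share only replicate number 1.

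With 2 or 3 libraries a group and 0 called genes, these data give estimates with their errors rather than calls. Members below 1 RPKM were not tested. The 2 libraries low in ribosomal RNA fall in both genotypes of a single environment, so their effect and that of OGD-R can be separated only through the other libraries.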

Other observations

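*Itgb4*, the laminin-binding beta subunit of epithelial hemidesmosomes, varied within groups rather than between them. It was 3.31, 6.69 and 2.61 RPKM in Cort+/+ and 3.35 and 3.10 RPKM in Cort-/- BECs under NX/NG, and 6.30, 3.62 and 2.54 RPKM and 3.48 and 6.84 RPKM under OGD-R. The 3 libraries above 6 RPKM were Cort+/+ NX/NG replicate 2 and both libraries low in ribosomal RNA. The 6 epithelial markers summed to 57.3 RPKM in the first of these, but to 7.74 and 9.11 RPKM in the others, and to 41.1 RPKM in Cort-/- OGD-R replicate 1, where *Itgb4* was 3.48 RPKM. Among the members below 1 RPKM on average, *Itga7* was 1.09 RPKM in Cort-/- OGD-R replicate 1 and 0.501 RPKM or less in the other 9 libraries. *Itgb7* ranged from 0.170 RPKM to 0.910 RPKM with overlapping groups.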
